A study of Mus musculus with 6 samples.

Results

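Keratins are the intermediate filament proteins of epithelial cells. They are built as pairs of an acidic type I and a basic type II chain, and the pair in use marks the kind of epithelium: Krt8 with Krt18 in simple epithelia, Krt5 with Krt14 in the basal layer of stratified epithelia, and Krt1 with Krt10 in the layers above it. In the thymus, Krt8 and Krt5 with Krt14 have long been used to tell cortical from medullary epithelium in tissue sections, and tuft cells of other organs are known for strong Krt18. The keratin genes were taken here as all protein-coding genes of the count table whose mouse symbol is Krt followed by a number, which leaves out the keratin-associated proteins and Krtdap. This gave 53 keratins among 52636 gene rows, of which 52 passed the filter on low counts and were tested, and Krt13 did not. Krt74, annotated as a transcribed pseudogene, was the 1 row with a keratin symbol that was left out.

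The libraries came from medullary thymic epithelial cells (mTEC) of 6-week-old C57BL/6 mice, sorted as UEA+ MHCIIlo CD80- Sca1- CD63- cells. Cells that also carried CD117 and CD66a are called tuft-like mTEC, and cells that lacked both are called non-tuft-like mTEC, with 3 libraries of each. Neither population is a named pure cell type: the second holds only the cells of this sort that lacked both CD117 and CD66a. Cells with a single one of these markers are in neither population. The paper sees the second population as a likely mix of mTEC subpopulations. The labels do not say whether the libraries came from separate mice, so p-values measure the spread between these libraries, which may be technical. Levels are TMM-normalized CPM. For these, reads of a gene are scaled to the total over the tested genes in its library, multiplied by that library's TMM factor. The factors ran from 0.789 to 1.213. Levels of different genes are compared only per kilobase of transcript (CPM per kb). A log2 fold change is tuft-like over non-tuft-like, and "called" means a false discovery rate (FDR) below 0.05 in edgeR's quasi-likelihood test over all 32496 tested genes. In bulk RNA, fewer cells of a type and less RNA per cell cannot be told apart.

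The 6 libraries held 20097617 to 48369825 reads assigned to genes. With the TMM factors included, 3 reads corresponded to 0.0639 to 0.124 CPM, a limit that covers counting error only. The share of reads on no annotated feature ran from 34.4% to 52.5% in the non-tuft-like libraries and was 61.6%, 47.6% and 19.7% in tuft-like 1, 2 and 3. All 8 tuft cell markers were called higher in tuft-like mTEC, with a summed level of 9570 to 15800 CPM against 575 to 738 CPM. Of 6 genes of mature mTEC, 5 were called lower, and their sum was 1100 to 2470 CPM against 6520 to 8140 CPM. The sum of Epcam and Cdh1, which mark epithelium, was 914 to 2040 CPM in tuft-like and 1430 to 2000 CPM in non-tuft-like libraries, and neither was called.

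Of the 52 tested keratins, 8 were called lower in tuft-like mTEC (Krt14, Krt16, Krt17, Krt23, Krt75, Krt78, Krt79 and Krt84) and 1 was called higher (Krt19), while 43 were not called. Over all tested genes 0.951% were called lower and 1.16% higher (2.11% in either direction), against 15.4% and 1.92% of the keratins. At an unadjusted p below 0.05 the keratins numbered 20 lower and 3 higher, where all tested genes gave 4.59% and 4.38%. DESeq2 called 14 keratins lower and 3 higher, and 5.01% and 5.24% of all genes for which it gave an adjusted p. The 6 libraries did not overlap for 21 keratins in the lower direction and for 3 in the higher one (Krt18, Krt19 and Krt222). Across all tested genes the libraries did not overlap in the lower direction for 8.85% and in the higher direction for 7.18%. The log2 fold change was below 0 for 40 keratins and above 0 for 12, with a median of -1.50, beside a median of 0.02 and a share below 0 of 49.0% over all tested genes. A mean of 10 CPM or more in either population was reached by 26 keratins, which included all 9 that were called. Among the 12345 tested genes at that level, 2.50% were called lower and 3.05% higher. The other 27 keratins reached at most 8.16 CPM in a population mean, and none of the 26 of them tested was called by edgeR, 2 having an unadjusted p below 0.05 and 1, Krt83, being called by DESeq2.

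**Figure D1:**
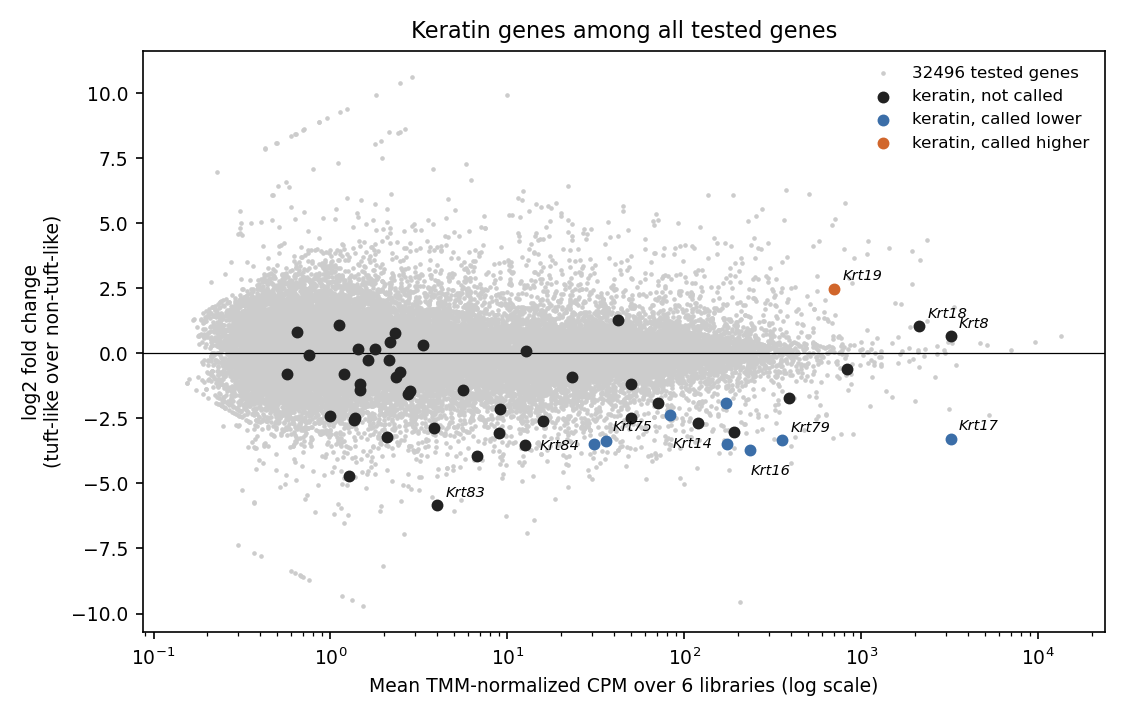
Each point is a gene, plotted by its mean level over the 6 libraries (CPM, log axis) and its log2 fold change (tuft-like over non-tuft-like). Grey points are the 32496 tested genes, and large points are the 52 tested keratins, 8 of them called lower (blue) and 1 called higher (orange); Krt17, Krt8 and Krt18 lie at the right edge among the most abundant genes.

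Summed over all 53 genes, keratins reached 13840, 14870 and 14640 CPM in the non-tuft-like libraries and 6124, 8868 and 14770 CPM in tuft-like 1, 2 and 3. On this scale tuft-like 3 stood at the non-tuft-like level, and the other tuft-like libraries lay below it. The place of tuft-like 3 depends on the TMM factors, which were 1.213, 1.002 and 0.789 in tuft-like 1, 2 and 3. They were 0.974, 0.973 and 1.101 in the non-tuft-like libraries. Scaled to library size alone, tuft-like 3 would also lie below every non-tuft-like library. The order of the tuft-like libraries in this sum was the reverse of their order in the share of reads on no feature, whose part in it was not tested.

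The make-up of the keratin pool set the populations apart. Keratins of simple epithelia (Krt7, Krt8, Krt18, Krt19, Krt20 and Krt23) supplied 40.6%, 35.7% and 27.9% of the summed CPM per kb in the non-tuft-like libraries and 93.4%, 90.4% and 84.9% in the tuft-like ones. The means were 34.7% ± 6.43 and 89.6% ± 4.32 (SD, n = 3 libraries each), and the populations did not overlap. Stress and companion layer keratins went the other way, from 50.2% ± 2.93 to 6.43% ± 3.33 of the pool. Suprabasal and cornifying keratins supplied 9.64% ± 3.75 and 2.34% ± 1.4, and basal keratins 4.33% ± 0.0414 and 0.625% ± 0.190. Most of this came from 4 genes. Krt17 alone was 46.1% ± 2.92 of the non-tuft-like pool and 5.86% ± 3.33 of the tuft-like pool. Krt8, Krt18 and Krt19 made up 15.6%, 11.9% and 1.67% of the non-tuft-like pool and 36.3%, 35.6% and 13.7% of the tuft-like pool. The ratio of type I to type II keratins per kb was 2.27 to 2.97 in non-tuft-like and 1.29 to 1.52 in tuft-like libraries.

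**Figure D2:**
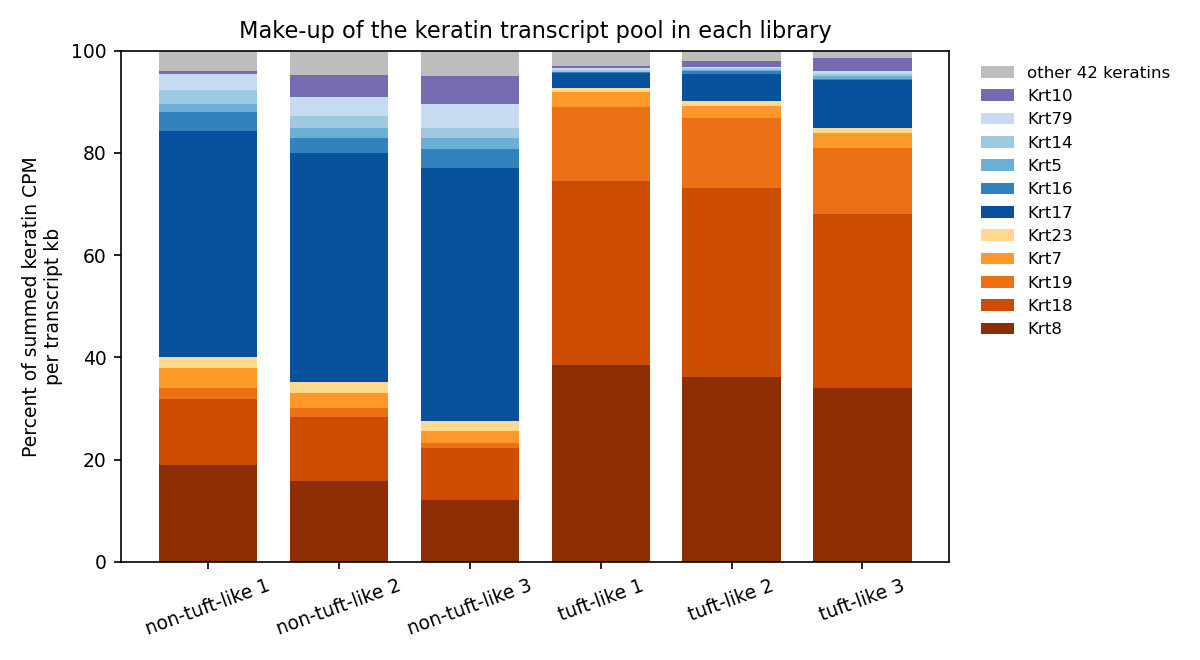
Stacked bars give the percent of the summed keratin level (CPM per transcript kb) from each of 11 keratins and from the other 42 together, with 1 bar per library. Krt17 (dark blue) takes 44.2% to 49.5% of the non-tuft-like bars and 2.83% to 9.42% of the tuft-like bars, where Krt8, Krt18 and Krt19 (brown to orange) fill most of the height.

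In non-tuft-like mTEC, Krt17 ranked 5 among 21896 protein-coding genes by mean CPM per kb, and in tuft-like mTEC it ranked 115. Krt8 moved from rank 20 to rank 11, Krt18 from 30 to 13, and Krt19 from 471 to 38. Krt14 stood at rank 283 and then 4827, and Krt5 at 380 and then 4404. As a measure of low level, the 1092 olfactory receptor genes had a 99th percentile of 1.26 to 2.78 CPM per kb of all annotated exons in the 6 libraries. The keratins were set against it on the same scale. All 26 of the more abundant keratins exceeded this percentile in every non-tuft-like library, and 15 of the 26 exceeded it in every tuft-like library. The 26 were picked by level, and all had non-tuft-like means of at least 12.35 CPM. Their tuft-like means went down to 0.832 CPM. These counts therefore follow in part from the choice and are no separate contrast.

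Among the keratins of simple epithelia, 1 of 6 was called higher and 1 lower. Krt19 is the smallest keratin, a type I chain that lacks the usual tail and pairs with Krt8. Its level was 247.8, 240.6 and 148.0 CPM in the non-tuft-like libraries and 785.6, 1097 and 1693 CPM in the tuft-like ones. The populations were well apart. The log2 fold change was 2.49 (SE 0.40, edgeR FDR 0.00934). This call was lost without non-tuft-like 2, where the FDR was 0.0651.

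Krt8, the type II chain of simple epithelia, was among the most abundant transcripts in both populations. It measured 2880, 2573 and 1942 CPM in non-tuft-like and 2609, 3594 and 5569 CPM in tuft-like libraries. Tuft-like 1 lay inside the non-tuft-like range, and the log2 fold change of 0.67 (SE 0.44) was not called (FDR 0.968). Its partner Krt18 measured 1437, 1500 and 1206 CPM and then 1780, 2705 and 4054 CPM. Here all tuft-like libraries were higher, but at a log2 fold change of 1.04 (SE 0.41) Krt18 was not called either (FDR 0.417), while 4 of the 14 other settings called it higher. Krt8 is counted with some doubt, because 29.7% of the 50-base stretches in its transcripts also occur in transcripts of other genes, most of them in the pseudogene Krt8-ps. Such stretches made up 0.720% of Krt18, and Krt19 shared none.

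Krt7, a type II keratin of glandular and ductal epithelia, did not follow Krt19. Its level was 1250, 993.3 and 747.1 CPM in the non-tuft-like libraries and 423.4, 493.6 and 1053 CPM in the tuft-like ones. Tuft-like 3 again reached the non-tuft-like range. The log2 fold change was -0.60 (SE 0.42, FDR 1.0). Krt20, the keratin of intestinal epithelium and of umbrella cells in the bladder, stood at 85.1, 77.5 and 44.0 CPM and then at 47.7, 30.8 and 14.2 CPM, with an overlap of the populations and no call (log2 fold change -1.16, FDR 0.382). Krt23, a type I keratin of several glandular epithelia, fell. It had 258.9, 282.1 and 271.5 CPM in non-tuft-like and 39.1, 66.9 and 112.2 CPM in tuft-like libraries. No library overlapped, and the log2 fold change was -1.90 (SE 0.38, FDR 0.0293). Leaving out non-tuft-like 1, non-tuft-like 2 or tuft-like 2 ended this call, with an FDR of up to 0.156.

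The stress and companion layer keratins had the lowest median of the role groups, -3.33, and 3 of 6 were called lower. Krt6a, Krt6b, Krt16 and Krt17 are induced in wounded or hyperproliferative epidermis and are also made in hair follicle and nail, and Krt75 marks the companion layer of the hair follicle. Krt17 fell from 5306, 5775 and 6344 CPM to 151.4, 420.3 and 1218 CPM. Even the highest tuft-like library was far below the lowest non-tuft-like one. Its log2 fold change was -3.28 (SE 0.70, FDR 0.0422). This call rested on few libraries: it was lost without any one of the 3 non-tuft-like libraries and without tuft-like 2, at an FDR of up to 0.278, although the log2 fold change stayed between -4.38 and -2.82.

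Krt16 fell from 462.1, 398.3 and 457.8 CPM to 11.9, 50.8 and 37.8 CPM. The non-tuft-like libraries lay close together, and each tuft-like library was far lower (log2 fold change -3.71, SE 0.50, FDR 0.0032). Of its 50-base stretches 37.6% are shared with other genes, the largest part with Gm11597. Krt75 fell from 59.5, 63.3 and 75.7 CPM to 8.43, 3.07 and 7.68 CPM, at a log2 fold change of -3.37 (SE 0.44, FDR 0.00295). Krt16 and Krt75 stayed called under all 14 other settings tried, as did Krt14.

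Krt6a and Krt6b, type II partners of Krt16 and Krt17, were low. Krt6b had 11.04, 45.6 and 12.6 CPM in non-tuft-like and 2.65, 3.33 and 0.0276 CPM in tuft-like libraries, which did not overlap, and it was not called (log2 fold change -3.53, SE 1.21, FDR 0.275). Krt6a had 14.1, 51.9 and 25.1 CPM and then 5.37, 16.6 and 26.0 CPM, with overlap and no call (log2 fold change -0.92, FDR 1.0). The pair shares much of its sequence: 57.2% of the stretches of Krt6a and 50.1% of those of Krt6b also occur in other genes, so how reads were split between them is uncertain. Krt42, the remaining member, was at most 2.83 CPM in any library.

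With TMM factors, the basal keratins measured lower in every tuft-like library than in any non-tuft-like one, and 1 of 3 was called. Krt14, the type I chain of basal cells and a usual marker of medullary epithelium, fell from 374.6, 311.3 and 276.7 CPM to 18.0, 29.4 and 38.3 CPM. No tuft-like library came near the non-tuft-like range. With a log2 fold change of -3.49 (SE 0.36) it had the lowest FDR of the family, 0.000885. Krt5, its type II partner, measured 246.7, 371.5 and 394.6 CPM and then 10.1, 13.2 and 101.6 CPM. Tuft-like 3 stood apart from the other tuft-like libraries while still below every non-tuft-like one. Krt5 was not called (log2 fold change -3.02, SE 0.78, FDR 0.0985), whereas it was under 8 of the 14 other settings, among them DESeq2 (FDR 0.0383) and voom (FDR 0.00207) on all libraries, and without tuft-like 3 (FDR 0.00113). Krt15, a type I keratin of basal cells in several stratified epithelia, was low throughout, with 7.23, 7.73 and 29.2 CPM and then 7.11, 1.29 and 1.77 CPM. Its non-tuft-like and tuft-like libraries were separated by a narrow gap and it was not called (log2 fold change -2.12, FDR 0.518). The gap depends on the TMM factors. Scaled to library size alone, tuft-like 1 would lie above non-tuft-like 1 and non-tuft-like 2 for Krt15. Of the 50-base stretches of Krt14 13.9% are shared with other genes, the largest part with Krt16, and of those of Krt5 12.2%.

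The suprabasal and cornifying keratins had log2 fold changes below 0 for all 9 members, with a median of -2.42 and 2 calls. Krt79 and Krt78 are less studied type II keratins of skin, the first known from the hair follicle opening. Krt79 fell from 492.4, 648.6 and 817.0 CPM to 30.95, 31.4 and 130.8 CPM. Here too tuft-like 3 was the highest tuft-like library, well under the lowest non-tuft-like one (log2 fold change -3.34, SE 0.59, FDR 0.0149). Krt78 fell from 125.4, 132.2 and 157.0 CPM to 14.6, 16.5 and 48.8 CPM (log2 fold change -2.37, SE 0.46, FDR 0.0261). Without tuft-like 2 neither was called, at FDRs of 0.0567 for Krt79 and 0.0974 for Krt78, and Krt78 was also lost without non-tuft-like 2 (FDR 0.053).

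Krt10 and Krt1, the classical pair of differentiating epidermis, were not called. Krt10 varied widely within both populations, with 92.9, 759.7 and 943.9 CPM and then 21.3, 113.6 and 412.1 CPM. Non-tuft-like 1 was lower than 2 of the tuft-like libraries, and the log2 fold change was -1.72 (SE 0.96, FDR 0.811). Krt1 had 63.0, 151.2 and 121.8 CPM and then 5.66, 48.8 and 34.5 CPM, without overlap (log2 fold change -1.92, SE 0.64, FDR 0.252). Krt77, a type II keratin of sweat gland ducts and epidermis, had 153.5, 210.0 and 255.2 CPM and then 6.49, 9.27 and 79.9 CPM (log2 fold change -2.69, FDR 0.181). Krt80, a type II keratin found in many differentiating epithelia, had 87.0, 77.8 and 91.2 CPM and then 13.8, 3.48 and 28.1 CPM (log2 fold change -2.49, FDR 0.0712). Neither overlapped, and neither was called, though Krt77 was under 5 and Krt80 under 8 of the 14 other settings. Krt2, of the upper epidermis, had 8.58, 22.1 and 17.2 CPM and then 2.69, 3.10 and 0 CPM (FDR 0.531). Krt9 of palm and sole skin and Krt24 were at most 3.77 CPM in any library.

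Other markers of keratinocyte differentiation moved with these keratins. Of 10 such genes that are not keratins, among them Ivl, Lor, Flg, Sbsn, Dmkn and Krtdap, 7 were called lower and 10 had an unadjusted p below 0.05, with a median log2 fold change of -3.17. Their summed level was 4580, 6210 and 6170 CPM in the non-tuft-like libraries and 205, 492 and 1170 CPM in tuft-like 1, 2 and 3, and none of the 10 was at 0 in any library. The 6 genes of mature mTEC all measured lower as well, 5 of them with a call, as given above. Whether the fall of Krt16, Krt17, Krt78 and Krt79 followed a difference in the share of such cells was not tested. Genes of cortical epithelium were low in both populations (120 to 138 CPM in tuft-like and 175 to 410 CPM in non-tuft-like libraries, summed over 5 genes, of which edgeR called 0, DESeq2 3 and voom 0, and 3 had an unadjusted p below 0.05).

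**Figure D3:**
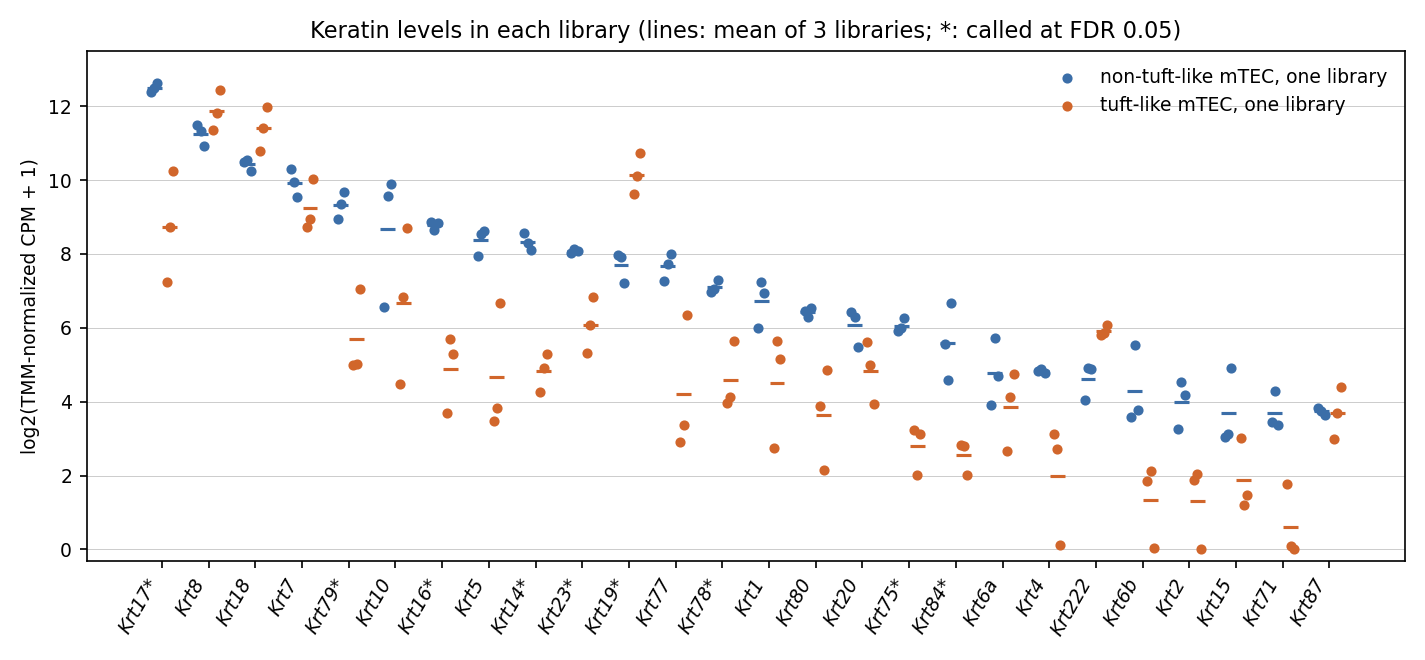
Points are single libraries and short lines are means of 3 libraries on the log2(CPM + 1) scale, for the 26 keratins that averaged 10 CPM or more in a population, ordered by their non-tuft-like mean; an asterisk marks the 9 that were called. Krt19 (785.6 to 1693 CPM in tuft-like libraries) stands above its non-tuft-like points, Krt8 and Krt7 overlap, and the tuft-like points of Krt5, Krt77 and Krt79 are spread by tuft-like 3.

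Keratins of mucosa and cornea were scarce, and 0 of 3 tested were called by edgeR or DESeq2, with 1 unadjusted p below 0.05. Krt4, the type II keratin of internal stratified mucosa, had 27.4, 28.6 and 26.2 CPM in non-tuft-like and 7.77, 5.64 and 0.0829 CPM in tuft-like libraries, without overlap and without a call (log2 fold change -2.61, SE 1.05, FDR 0.430). Its type I partner Krt13 had 6, 66 and 197 reads and then 0, 2 and 0 reads, too few for the filter. Krt76 of the palate and Krt12 of the cornea were at most 14.4 CPM in any library and were not called.

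Hair and nail keratins numbered 16, of which 1 was called lower and 14 had means under 10 CPM. Krt84, a type II keratin of hair and of the tongue papillae, fell from 45.9, 22.8 and 100.5 CPM to 6.16, 5.96 and 3.04 CPM. Non-tuft-like 3 was the highest library, the tuft-like values were close together, and the log2 fold change was -3.48 (SE 0.58, FDR 0.012). Without non-tuft-like 3 the FDR was 0.0637, and voom on all libraries gave an FDR of 0.0785, so the call was lost in both. Krt83 had the most negative log2 fold change of the family, -5.83 (SE 1.55, FDR 0.109), from 420, 344 and 98 reads in the non-tuft-like libraries to 5, 7 and 0 reads in the tuft-like ones. Of its stretches 22.1% are shared, chiefly with Krt86, and its value is uncertain to that extent. Krt87, a type II hair keratin, was level between the populations at 12.4 ± 0.944 and 13.0 ± 6.56 CPM (SD, n = 3 each). Its log2 fold change of 0.07 (SE 0.56) changed sign between settings. Of its stretches 36.9% are shared with other genes, the largest part with Gm49425, so its value is uncertain too.

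The inner root sheath keratins, which line the growing hair, had a median log2 fold change of 0.15 and no edgeR calls among 7, with 1 unadjusted p below 0.05 and 1 DESeq2 call, both for Krt71. Krt71 had 9.85, 18.5 and 9.34 CPM in non-tuft-like and 2.44, 0.0585 and 0 CPM in tuft-like libraries (FDR 0.459). The remaining 6 had population means of at most 6.74 CPM. Krt222, a keratin-like gene that was given no type here, did not overlap, with 15.6, 29.2 and 28.4 CPM and then 54.8, 56.9 and 66.9 CPM, but was not called (log2 fold change 1.29, SE 0.34, FDR 0.106).

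Since keratins work as pairs, the ratio of partners within a library was also taken, which does not depend on the scaling between libraries. Krt8 over Krt18 per kb was 1.47, 1.26 and 1.18 in the non-tuft-like libraries and 1.08, 0.975 and 1.01 in the tuft-like ones, all of which were lower. Krt5 over Krt14 was 0.509, 0.922 and 1.10 and then 0.433, 0.348 and 2.05, with overlap. The tuft-like values spread on both sides of the non-tuft-like ones, the highest being tuft-like 3. Krt6a over Krt16 was 0.0209 to 0.0895 and then 0.225 to 0.473, apart between the populations, with both genes sharing much sequence with others. Between epithelial kinds the ratios were also apart. Krt18 over Krt14 was 4.53 to 5.69 in non-tuft-like and 109 to 125 in tuft-like libraries, and varied little within either. Krt8 over Krt5 was 5.52 to 13.1 and then 61.5 to 305. Krt19 over Krt17 was 0.0230 to 0.0460 and then 1.37 to 5.11. Within the simple epithelial keratins, Krt7 over Krt19 was 1.59 to 1.94 and then 0.173 to 0.240. These ratios describe chosen pairs and carry no test.

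**Figure D4:**
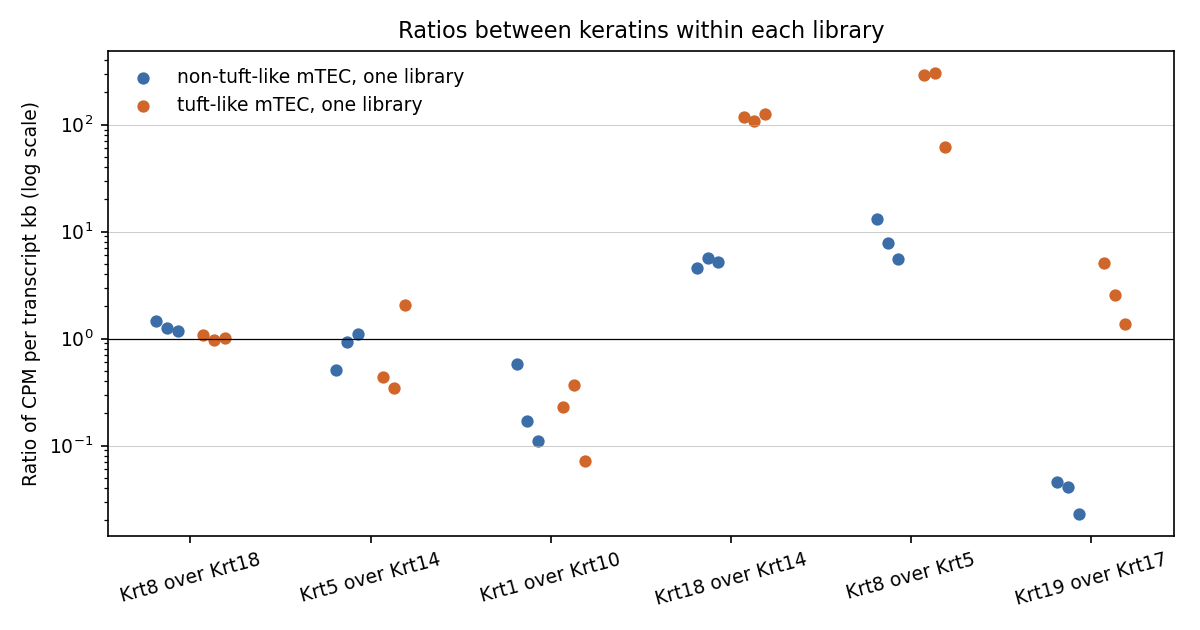
Each point is the ratio of 2 keratins in 1 library, as CPM per transcript kb on a log axis, with the line at 1. The ratios Krt8 over Krt18, Krt5 over Krt14 and Krt1 over Krt10 lie between 0.0714 and 2.05 with the populations close or overlapping, whereas Krt18 over Krt14, Krt8 over Krt5 and Krt19 over Krt17 are apart.

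The mouse keratins lie in a pair of clusters. In GENCODE M21, on the mm10 build used by the authors, 27 keratins span 1037 kb at chr11:99232761-100269871, all on the minus strand. They are type I genes apart from Krt222. The second cluster, at chr15:101347444-102032027, spans 685 kb and holds the 25 type II genes with Krt18, the only type I gene there, at its end. In the chromosome 11 cluster 1 of the 26 tested was called higher and 4 lower, and in the chromosome 15 cluster 0 of 26 were called higher and 4 lower, Krt18 being the 1 gene there with an unadjusted p below 0.05 in the higher direction and called higher by DESeq2. Median log2 fold changes were -1.03 and -2.55. The libraries did not overlap in the lower direction for 6 of the 26 on chromosome 11 and 15 of the 26 on chromosome 15. Over all tested genes this share was 8.85%, with 0.951% called lower and 1.16% called higher. Whether the clusters differ was not tested.

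Krt19, at chr11:100140810-100148665, lies among genes that went the other way or were not called. Krt15 (log2 fold change -2.12, not called) is 4.9 kb to 1 side, Krt9 (-0.78, not called) is 38.1 kb to the other, and Krt14 at chr11:100203162-100207548 comes next. Krt14, Krt16 and Krt17, all called lower, follow each other in the genome, with Krt16 at chr11:100246091-100248902 and Krt17 at chr11:100256217-100261029. On chromosome 15 the order near the cluster end was Krt79 and Krt78, both lower, then after 42.4 kb Krt8 at chr15:101996698-102004482 and after a further 23.7 kb Krt18 at chr15:102028180-102032027, neither of them called. Krt84 and Krt75 were the other called members there, with Krt82 and Krt90 between them at log2 fold changes of -1.20 and 0.31, neither called.

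**Figure D5:**
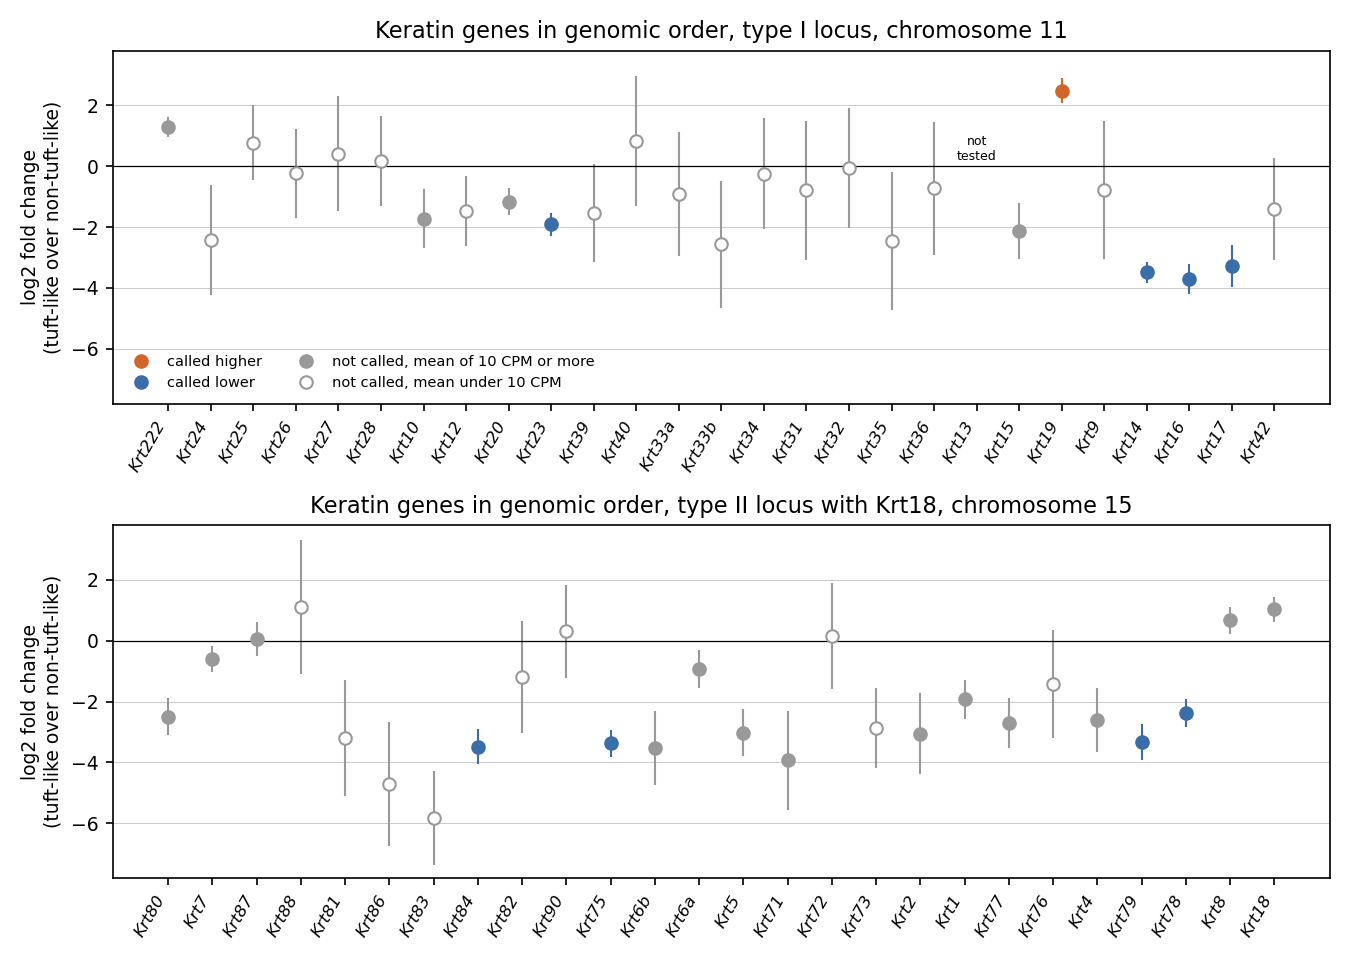
Log2 fold changes (tuft-like over non-tuft-like, bars are SE) are plotted for the keratins in genomic order, at equal spacing, on chromosome 11 and chromosome 15. Colours mark calls, and open points are genes under 10 CPM in both populations; Krt19 (2.49) stands alone above its neighbours, and Krt8 and Krt18 at the right end lie above 0.

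A TATA box is a short A and T rich element that lies just before the start of some genes. Start sites were available in RefSeq (GRCm38.p6, the same assembly as mm10) for 36 of the 53 keratins, and Krt16, Krt17 and Krt19 were among the 17 without an entry. The letters TATAAA, searched on both strands in the 50 bases before the start, were found for 15 of the 36 (41.7%), against 4.17% of 27025 genes. These 15 were 6 inner root sheath and 5 hair keratins with Krt10, Krt12, Krt20 and Krt76. Of the 15, edgeR called 0 and DESeq2 1, and 2 had an unadjusted p below 0.05. Of the 21 without these letters edgeR called 6 and DESeq2 8, and 10 had an unadjusted p below 0.05. Of the 17 without an entry edgeR called 3 and DESeq2 8, and 11 had such a p. Over all tested genes edgeR called 2.11% in either direction. An unadjusted p below 0.05 was found for 4.59% lower and 4.38% higher. DESeq2 called 5.01% lower and 5.24% higher among genes with an adjusted p. The difference between the 15 and the 21 was not tested, and the keratins of hair are low in these libraries. Krt14 is among the 6 called by edgeR without these letters, but the bases searched for it lie within chr11:100206031-100206130. That stretch is inside its GENCODE M21 span, chr11:100203162-100207548, so the bases before the 5′ end of the span were not searched. The same holds in the TATAAA search for Krt7 and Krt8, which were not called. Their stretches, chr15:101412303-101412402 and chr15:102004343-102004442, lie inside chr15:101411043-101430313 and chr15:101996698-102004482. The motif GCCNNNGGC, searched on both strands in 250 bases, was found for 13.9% of keratins and 15.4% of genes, and these letters do not overlap those of TATAAA. The search for TATAAA took these exact letters only, so an A and T rich element with other letters was not counted. The 100 bases before the start are shown 5′ to 3′ on the gene's strand for 2 keratins with TATAAA (in capitals). They are also shown for 4 type II keratins that fell and lacked these exact letters. Of these 4, Krt75, Krt78 and Krt84 have the letters ATAAAAG in the 50 bases before the start. Whether keratins without TATAAA have a TATA box was not tested. Krt10 is at chr11:99389365-99389464, Krt20 at chr11:99438154-99438253, Krt75 at chr15:101573905-101574004, Krt78 at chr15:101954288-101954387, Krt79 at chr15:101940325-101940424 and Krt84 at chr15:101532821-101532920, all on the minus strand.
Krt10: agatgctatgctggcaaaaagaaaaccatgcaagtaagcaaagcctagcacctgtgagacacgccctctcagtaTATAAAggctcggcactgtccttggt
Krt20: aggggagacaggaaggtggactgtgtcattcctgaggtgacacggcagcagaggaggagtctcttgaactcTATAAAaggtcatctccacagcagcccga
Krt75: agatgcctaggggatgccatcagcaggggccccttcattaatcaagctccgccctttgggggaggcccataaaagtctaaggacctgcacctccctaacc
Krt78: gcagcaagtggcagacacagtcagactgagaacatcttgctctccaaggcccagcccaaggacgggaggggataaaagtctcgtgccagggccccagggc
Krt79: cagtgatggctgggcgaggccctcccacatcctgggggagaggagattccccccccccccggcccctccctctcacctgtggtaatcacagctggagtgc
Krt84: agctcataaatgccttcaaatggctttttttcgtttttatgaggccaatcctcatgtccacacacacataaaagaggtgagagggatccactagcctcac
A match is a description of letters and not of a working site.

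A list of 12 genes whose products work with keratins was measured beside them: plakins and desmosomal proteins that tie filaments to junctions, Fam83h and Tchp, which help arrange filaments, and Trp63, a transcription factor. Of the 12, 1 was called, Pkp3, a desmosomal plakophilin, which fell from 172.9, 205.9 and 223.8 CPM to 52.9, 78.0 and 87.2 CPM (log2 fold change -1.47, SE 0.29, FDR 0.029). All tuft-like libraries lay below the non-tuft-like ones, but the call was kept only when tuft-like 3 was the library left out (FDR 0.0212), and leaving out any one of the other 5 gave FDRs of 0.0525 to 0.153. The median of the 12 was -0.87, and for 7 of them the libraries did not overlap in the lower direction. Over all tested genes this share was 8.85%, and 0.951% were called lower. The 7 included Jup and Dsp, which anchor keratins at desmosomes (log2 fold changes -0.84 and -1.01, FDRs 0.472 and 0.186). Plec and Dst, linkers of filaments to hemidesmosomes, had log2 fold changes of 0.26 and 0.59 and were not called. Trp63, which controls stratified epithelia and acts on Krt5 and Krt14, had 112.1, 203.0 and 157.9 CPM and then 26.5, 31.2 and 85.2 CPM, without overlap and without a call (log2 fold change -1.73, FDR 0.107). Tuft-like 3 was highest of the tuft-like libraries here as for Krt5.

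Of 18 intermediate filament genes outside the keratins, 1 was called, beside 2.11% of all tested genes in either direction. Nefl, the light neurofilament chain, rose from 5.27, 2.04 and 14.5 CPM to 66.2, 87.4 and 108.5 CPM (log2 fold change 3.59, SE 0.63, FDR 0.0151). Vim, the filament of mesenchymal cells, had 53.8, 53.7 and 54.6 CPM and then 21.1, 5.26 and 10.2 CPM and was not called (log2 fold change -2.15, FDR 0.0549). The median of the 18 was -0.16. The 57 keratin-associated protein genes, which form the matrix between hair keratins, were all but silent: 16 passed the filter and 0 were called by edgeR, DESeq2 or voom, with 1 unadjusted p below 0.05, and no gene had a population mean over 2.13 CPM.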

How the data were processed

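Sorted tuft-like and non-tuft-like mTEC, 3 libraries each, were sequenced by the authors after ultra-low input amplification. Per the labels and methods, reads were trimmed with Trimmomatic 0.36, aligned to mm10 with STAR 2.7.3a and assigned to genes with HTSeq. The deposited values are raw read counts per gene. The annotation release and strand setting are not given in the sources used here. Of the 52636 gene rows 99.72% matched GENCODE M21. The 92 ERCC rows (all 0) and 5 HTSeq summary rows were left out, and the latter's shares are given in part in the report. No 2 libraries had the same count in more than 1.36% of genes.

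Without strand, reads of a gene and its antisense partner cannot be told apart. Krt12 and Krt6a have the longest exonic overlaps with genes of the other strand, 1007 and 600 bases, and 10 other keratins have shorter ones. Reads aligning to several places (4.01% to 5.05%) were not assigned, which lowers keratins with near copies. Of 53 keratins, 17 shared over 10% of their 50-base stretches with another gene.

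Groups came from the labels. In R 4.3.3, low genes were removed with filterByExpr (counts of 10, total of 15), scaled by TMM and tested with edgeR 4.0.16 (quasi-likelihood F-test, no covariates, Benjamini-Hochberg over all 32496 genes). The common coefficient of variation was 1.1. The SE was taken from the log2 fold change and the F statistic, as the size of the former over the square root of the latter. CPM per kb used the length of the principal transcript, except for the olfactory receptor percentile and the keratins set against it, which used all annotated exons. The test was checked on simulated counts. No exact permutation test of 3 against 3 libraries can go below 0.10, and none was used.

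Alternatives were RLE factors, library size only, DESeq2 1.42.0, edgeR's likelihood ratio test, limma 3.58.1 voom, no filter, at least 10 CPM in 3 libraries, a replicate block and leaving out each library. Values are given for the keratins that were called, had a mean of at least 10 CPM in a population, or are Krt1, Krt5, Krt8, Krt10, Krt14 or Krt18, and of other lists for called or abundant genes. Other genes are named after their values were seen. The members, role groups and lists were chosen with earlier results of these data known. Other cell types' genes were summed by list. The 7 haematopoietic genes were at 22.4 to 33.2 CPM (non-tuft-like) and 8.67 to 54.6 CPM (tuft-like). The 5 fibroblast genes were at 46.1 to 68.9 and 38.1 to 129 CPM. The 4 endothelial genes were at 33.0 to 58.8 and 165 to 328 CPM, and Tek was called higher. Each of these sums was highest in tuft-like 1. Pecam1 had 106.3, 8.16 and 3.07 CPM and Kdr 41.2, 12.7 and 0.221 CPM in tuft-like 1, 2 and 3. Tek was highest in tuft-like 3, at 225.0 CPM.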

Additional observations from a re-analysis of the deposited data

How the results depend on the processing

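Beside 8 keratins called lower, DESeq2 and the fit without a filter each called 14. DESeq2 gave an adjusted p for 38 keratins. Leaving out 1 library gave 4 to 13, the lowest without tuft-like 2, then 5 without non-tuft-like 2, and the highest without tuft-like 3. The other settings gave 8 to 12. Beside 1 called higher (Krt19), library size only, the likelihood ratio test and voom each called 2, DESeq2 and the filter of 10 CPM in 3 libraries 3, and leaving out 1 library 0 to 1. The labels do not say whether same-numbered libraries share a source. Deviations of same-numbered libraries from their population means correlated at -0.156, -0.061 and -0.326, which cannot decide this. Under a replicate block 0 keratins were called higher and 11 lower, 7 of the 9 calls being shared, without Krt17 and Krt19.

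Of the other filament genes (1 called), DESeq2, the likelihood ratio test, voom, no filter and the replicate block each called 2, and leaving out 1 library 1 to 2. Of the partners (1 called), library size only called 4, DESeq2 6, the likelihood ratio test 5, voom 4, no filter 4, 10 CPM in 3 libraries 7, the replicate block 3, and leaving out 1 library 0 to 3. Keratin-associated genes had 0 calls in each. Krt87 changed sign: -0.05 by library size only and under the block, and -0.42 (without tuft-like 3) to 0.38 (without tuft-like 1) when 1 library was left out, -0.02 of these without non-tuft-like 3. The other 25 named keratins kept their sign. The cause of these changes was not tested, except that fewer libraries or genes were tested by construction. The simple epithelial share of the pool moved by less than 1 SD without length scaling and per kb of all exons (added after seeing the data). Other shares moved by more: without length scaling the non-tuft-like stress share was 44.1%, Krt17 40.2% and the basal share 4.66% (4.44% per kb of all exons), and tuft-like Krt18 was 29.0%. Depth limits keratins with under 3 reads in a library.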
